A study of Mus musculus with 22 samples.

Results

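Astrocytes are the glial cells that take up transmitter, buffer potassium and water, store glycogen, make cholesterol and secrete lipoproteins and synapse-organising proteins. Their messenger RNA bound to ribosomes was compared here with that of 5 other cell types of the mouse brain: microglia, inhibitory interneurons, cortical layer V neurons, and the granule cells of dentate gyrus and cerebellum. The members are the 3 astrocyte replicates among the 22 libraries of the series, each entered once, and they were set against 15 libraries, 3 of each other type, so that 18 libraries were compared. Where a replicate had been sequenced in both of 2 batches, its batch 1 library was used.

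The method was RiboTag, in which Cre recombinase switches on a hemagglutinin-tagged copy of the ribosomal protein RPL22, so that ribosomes of the Cre-expressing cells can be pulled from a tissue lysate with their RNA. All mice were 6 weeks old and carried Rpl22 Fl/+ with 1 Cre. Astrocytes came from cortex with Aldh1-cre (Aldh1l1-cre/ERT2 in the study's methods), microglia from cortex with Tmem119-cre, and layer V neurons from cortex with Rbp4-Cre. Rbp4-Cre also marked the dentate gyrus granule cells, taken from hippocampus. Dlx6a-Cre marked the inhibitory interneurons, for which hippocampi of 2 mice were pooled in each library, and Gabra6-Cre the granule cells of the cerebellum. Both glial Cre proteins need tamoxifen, per the study's methods, and the neuronal ones do not, so glial identity and tamoxifen cannot be told apart. All microglia and interneuron libraries were sequenced in batch 2 and the astrocyte libraries used here in batch 1. Within the 18 libraries, batch and cell type therefore cannot be told apart for those 2 comparisons. In the whole series 4 replicates, among them an astrocyte one, were labelled as sequenced in both batches. For layer V replicate 1, among these 4, the labels give female in batch 1 and male in batch 2, and this conflict was not resolved. A bulk level is a share of the RNA recovered: more cells of a type and more RNA per cell cannot be told apart.

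The astrocyte libraries held 61690065 to 71440915 estimated counts and the other 15 held 38270477 to 70663176. Levels are given in CPM, the gene's count scaled to a common library size with TMM factors, and as mean ± SD over 3 libraries. Across genes, Pearson's r of log levels was at least 0.988 between astrocyte libraries and 0.808 to 0.892 between an astrocyte library and one of another type. Mitochondrially encoded transcripts took 2.00% to 2.61% of the TPM (a level per transcript length) in astrocytes and 0.223% to 2.06% elsewhere. Differences were tested with edgeR's quasi-likelihood test, with Benjamini-Hochberg adjustment over all 20524 genes tested. The log2 fold change compares the astrocytes with the mean of the log levels of the 5 other types, and a gene counted as higher or lower when it changed at least 2-fold with an adjusted p no greater than 0.05.

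The 4 genes that mark astrocytes were at their highest in all 3 astrocyte libraries. Aldh1l1, a folate enzyme and the gene whose promoter drives the Cre (chromosome 6 from 90486427 to 90600203 of GRCm38), was at 632, 629 and 740.0 CPM in astrocyte replicates 1 to 3, while the other 15 libraries had a lowest level of 1.21, a median of 4.36 and a highest of 35.8 CPM. Slc1a2, the main glutamate transporter of the forebrain (chromosome 2 from 102658659 to 102790784), was at 20549, 19173 and 22147 CPM against 66.6, 241 and 426 CPM at the lowest, median and highest of the others. The groups did not overlap for either gene, and the highest of the other libraries were from layer V neurons in both. The water channel gene Aqp4 was at 808, 1014 and 1074 CPM in astrocytes, and elsewhere its lowest, median and highest levels were 2.77, 6.52 and 16.9 CPM. Gfap, which encodes the intermediate filament of astrocytes (chromosome 11 from 102887336 to 102900912), was at 1196, 1265 and 1433 CPM against 1.90, 21.98 and 109 CPM. Microglia came next for these 2 genes, at means of 14.2 and 90.7 CPM. The log2 fold changes were 6.71 for Aldh1l1 (standard error 0.08), 6.61 for Slc1a2 (0.07), 7.17 for Aqp4 (0.13) and 6.47 for Gfap (0.18), with adjusted p of 3.71e-13 or less from edgeR. These 4 genes had been chosen as markers of the cell type, so their levels check the label and are no result of their own.

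**Figure D1:**
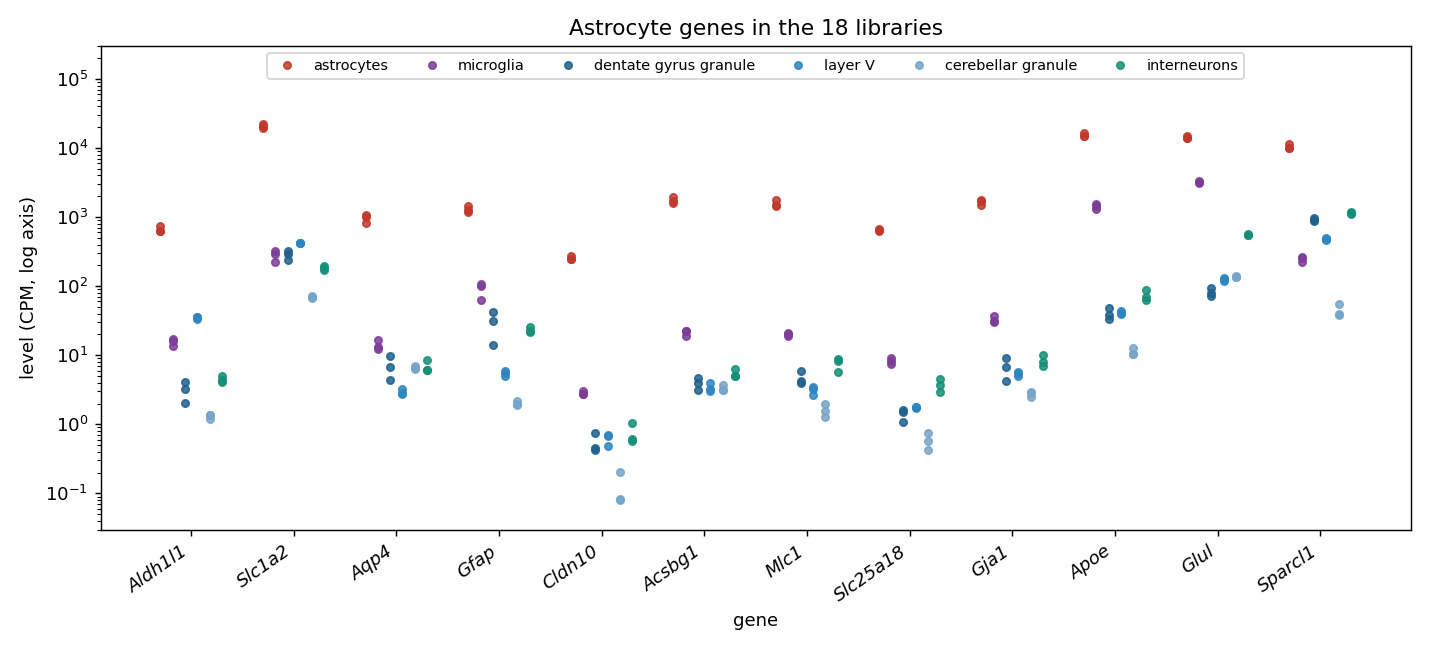
Level in CPM (log axis) of the 4 markers and of 8 further genes in each of the 18 libraries, 1 point a library, coloured by cell type; values under 0.05 CPM are drawn at 0.05. For all 12 genes the 3 astrocyte points lie above the other 15, and for Apoe and Glul the microglia points come next, at means of 1412 and 3237 CPM.

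Across all genes, 5001 of 20524 (24.4%) were called higher in astrocytes and 2129 (10.4%) lower. The largest changes were upward: 1544 genes were at least 8-fold higher and 41 at least 8-fold lower, and 275 were at least 64-fold higher. For 2669 genes (13%) every astrocyte library lay above all 15 others, and 2283 (11.1%) were also called higher. For 1210 genes (5.9%) every astrocyte library lay below all 15, and 485 (2.36%) were also called lower. The median log2 fold change over all genes was 0.08. Because the comparison is with a mean of log levels, a gene that is high in 1 other type alone can be called higher: astrocytes had the highest mean level in 2732 of the 5001 genes called higher (54.6%, against 16.8% of all genes tested) and microglia in 1394 (27.9%, against 27.3% of all genes tested), and 748 had a lower mean CPM in astrocytes than the arithmetic mean of the 5 types (37.1% of all genes were above it). For this reason the ratio of astrocyte CPM to that arithmetic mean is given beside the log2 fold change where it matters.

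**Figure D2:**
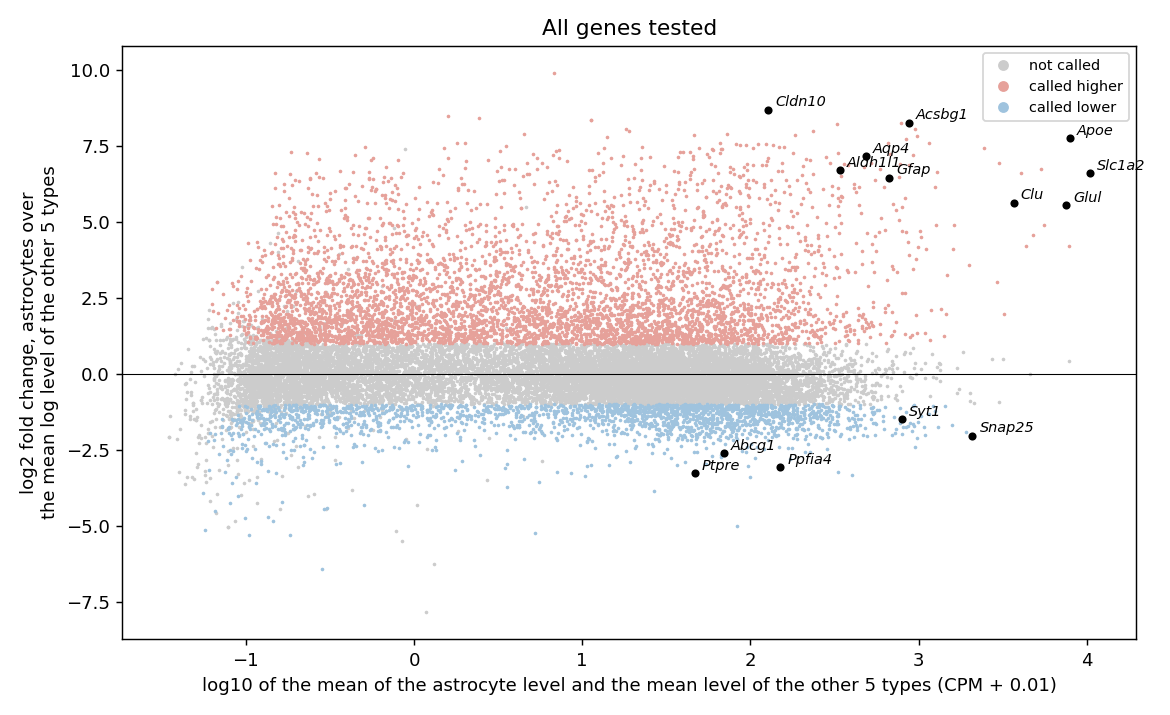
Log2 fold change of every gene tested (astrocytes over the mean log level of the 5 other types) against the log10 of the mean level; red points were called higher, blue points lower, and 14 genes described in the text are labelled. The upward changes reach 8.69 for Cldn10 among genes at 20 CPM or more in astrocytes, and the downward changes reach -3.27 for Ptpre among genes at 50 CPM or more elsewhere whose astrocyte libraries lay below all 15 others.

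The 20 genes with the highest log2 fold changes, among those at 20 CPM or more in astrocytes and above all other libraries, spanned 7.57 (Lcat) to 8.69 (Cldn10). Several belong to the membrane contacts and channels of astrocytes. Cldn10, a claudin (chromosome 14 from 118787908 to 118875489), was at 246, 245 and 273 CPM in the 3 astrocyte libraries, and in the others at 0.0815 (lowest), 0.609 (median) and 3.06 CPM (highest). Mlc1, mutated in a leukoencephalopathy with brain cysts (chromosome 15 from 88955884 to 88979007), was at 1465, 1509 and 1743 CPM, with 1.28, 4.21 and 20.98 CPM elsewhere. Gja1, which encodes connexin 43 of the astrocyte gap junctions (chromosome 10 from 56377330 to 56402513), was at 1480.3, 1728 and 1780.3 CPM, with 2.49, 6.78 and 37.2 CPM elsewhere. Microglia were the next type for all 3 genes, and even there the astrocyte mean was 90.1, 78.5 and 50.5 times higher, respectively. The inward rectifier subunit Kcnj16 had a log2 fold change of 7.58.

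Genes of lipid and intermediary metabolism made up another share of the leading 20. Acsbg1, a long-chain acyl-CoA synthetase (chromosome 9 from 54604877 to 54661870), was at 1683, 1594 and 1923 CPM in astrocytes against 2.99, 4.01 and 22.6 CPM (lowest, median and highest of 15), a log2 fold change of 8.28 (standard error 0.08, adjusted p = 6.13e-22 from edgeR). Slc25a18, a mitochondrial glutamate carrier, was at 648, 637 and 680.0 CPM against 0.428, 1.80 and 9.27 CPM. That neither gene had any overlap between groups was fixed by the choice of the leading 20. Apoe, the main apolipoprotein of the brain (chromosome 7 from 19696109 to 19699188), was at 14934, 14897 and 16691 CPM, while its lowest, median and highest levels in the others were 10.4, 43.2 and 1521 CPM. All 3 microglia libraries were far above the neurons for Apoe, so the log2 fold change of 7.76 stood beside a ratio to the arithmetic mean of 49.1. The cholesterol-esterifying enzyme gene Lcat (7.57), the lipid phosphatase gene Plpp3 (7.62), Papss2 (7.91), which makes the sulfate donor of proteoglycans, and the glycogen-targeting subunit gene Ppp1r3g (7.88) had comparable log2 fold changes. Cideb, a lipid droplet protein gene, was at 32.8, 34.8 and 39.98 CPM and at 0 in all cerebellar granule cell libraries, so its fitted log2 fold change of 8.08 depends on the prior count; its ratio to the mean CPM of the 5 types was 100.2.

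The remaining leaders were receptors, secreted proteins and a few genes of less known role in astrocytes. Gpr37l1, an orphan receptor gene, had a log2 fold change of 8.08, S1pr1, a sphingosine-1-phosphate receptor gene, one of 7.59 and Slc39a12, a zinc transporter gene, was 129 times the arithmetic mean of the other types. Gpc5, a glypican gene, was 166 times and Mfge8, a secreted bridge to phagocytes, 132 times the arithmetic mean of the other types. Rlbp1, known for carrying retinal in the eye, was at 129.6, 121 and 143 CPM in astrocytes and at most 2.91 CPM elsewhere. Myom3, a sarcomere M-band gene, was at 36.04, 38.3 and 38.8 CPM against at most 1.05 CPM. Pdzph1 was at 26.00, 27.5 and 30.2 CPM against at most 0.928 CPM. The last 2 stayed under 50 CPM in all astrocyte libraries.

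Cldn10 and the glycolytic gene Aldoc each have a pair of start sites in RefSeq (GRCm38.p6), and transcripts of the deposited tables start within each window, so the windows from 250 bases before to 50 after each start are printed here with those of Aldh1l1 and Gja1. Bases are in lower case, and capitals mark the only match among TTGGCA (the half-site of NFI factors), AACAAT (SOX), CACGTG (HES) and TATAAA on either strand, which lies in the upstream Aldoc window. All 6 windows are on the plus strand. Aldh1l1 is at chr6:90550543-90550842, Gja1 at chr10:56377050-56377349, Cldn10 at chr14:118787621-118787920 and chr14:118854700-118854999, and Aldoc at chr11:78322823-78323122 and chr11:78323948-78324247.
Aldh1l1: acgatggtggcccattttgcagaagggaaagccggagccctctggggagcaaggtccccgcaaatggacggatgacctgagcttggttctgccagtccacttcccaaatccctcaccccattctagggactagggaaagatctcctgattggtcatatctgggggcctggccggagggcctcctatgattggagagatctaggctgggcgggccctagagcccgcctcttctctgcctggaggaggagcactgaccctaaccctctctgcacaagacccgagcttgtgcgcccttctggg
Gja1: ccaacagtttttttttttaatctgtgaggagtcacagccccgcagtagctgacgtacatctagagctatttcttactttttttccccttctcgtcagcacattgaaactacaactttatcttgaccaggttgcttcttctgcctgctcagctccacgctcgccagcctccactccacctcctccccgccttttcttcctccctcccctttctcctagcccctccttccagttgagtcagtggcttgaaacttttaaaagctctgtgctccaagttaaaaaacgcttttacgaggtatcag
Cldn10 upstream: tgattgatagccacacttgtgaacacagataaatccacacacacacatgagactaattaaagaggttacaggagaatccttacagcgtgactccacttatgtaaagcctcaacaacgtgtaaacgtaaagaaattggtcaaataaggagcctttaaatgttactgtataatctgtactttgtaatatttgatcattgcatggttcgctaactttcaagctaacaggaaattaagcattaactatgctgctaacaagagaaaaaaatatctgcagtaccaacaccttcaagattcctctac
Cldn10 downstream: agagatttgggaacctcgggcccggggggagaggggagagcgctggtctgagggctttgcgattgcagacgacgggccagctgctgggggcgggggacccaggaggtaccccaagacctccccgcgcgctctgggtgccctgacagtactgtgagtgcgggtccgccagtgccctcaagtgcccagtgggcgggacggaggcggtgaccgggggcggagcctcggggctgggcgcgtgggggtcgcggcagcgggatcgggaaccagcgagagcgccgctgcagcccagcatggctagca
Aldoc upstream: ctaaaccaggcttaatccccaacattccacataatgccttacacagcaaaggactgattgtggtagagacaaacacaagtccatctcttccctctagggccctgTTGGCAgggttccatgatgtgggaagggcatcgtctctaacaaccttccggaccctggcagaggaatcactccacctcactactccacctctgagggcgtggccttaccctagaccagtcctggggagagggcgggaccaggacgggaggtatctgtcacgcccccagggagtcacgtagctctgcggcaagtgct
Aldoc downstream: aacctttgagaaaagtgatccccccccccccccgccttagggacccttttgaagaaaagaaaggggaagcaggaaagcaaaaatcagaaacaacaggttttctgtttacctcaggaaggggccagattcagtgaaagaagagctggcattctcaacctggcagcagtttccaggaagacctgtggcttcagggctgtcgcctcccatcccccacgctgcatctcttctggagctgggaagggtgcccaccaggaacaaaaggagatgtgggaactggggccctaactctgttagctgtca

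The upstream and downstream Cldn10 windows differ in base composition, with 36% GC and 4 CpG against 72% GC and 27 CpG. The main transcript that starts in the upstream window is Cldn10-201 (37 bases after the RefSeq start). It was at 131, 134 and 125 TPM in the astrocyte libraries, which was 46.7% ± 1.75 of the gene's TPM (SD, n = 3). Cldn10-202 also starts in that window (position 47) and was at a mean of 0.017 TPM in astrocytes. The one that starts in the downstream window, Cldn10-203, begins at position -218 from the RefSeq start there, so its level is not that of the RefSeq start itself. It was at 155, 141 and 149.6 TPM, or 53.3% ± 1.75. Cldn10-201 and Cldn10-203 were thus assigned reads in every astrocyte library, and in the other 15 libraries neither of them exceeded 2.31 TPM. Aldoc was uneven: Aldoc-202, from the downstream window (position 2), held 84.2% ± 0.117 of its TPM in astrocytes and Aldoc-201 (position -105 from the upstream RefSeq start) 15.2% ± 0.134. These shares come from the authors' probabilistic assignment of reads to transcripts that share most exons.

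The same motifs were counted on both strands in all RefSeq windows. Symbols matched a window for 1651 of the 2282 symbols called higher and above all 15 (2098 windows), for 343 of the 485 called lower and below all 15 (468 windows) and for 13916 of the 20496 symbols tested (17660 windows). TTGGCA was in 14.3% of the windows of the higher set, 10.9% of the lower set, 12.0% of the tested genes and 14.1% of all 32851 windows. AACAAT was in 6.86%, 5.98%, 6.85% and 10.7% in the same order, CACGTG in 8.44%, 8.33%, 9.06% and 7.15%, and TATAAA in 9.15%, 7.91%, 8.50% and 13.6%. The median GC content was 59.3% in the higher set and in all tested genes and 62.7% in the lower set. A match or its absence in these windows says nothing about binding.

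Astrocytes clear transmitter from the synapse, and 9 of the 10 genes listed for glutamate and GABA uptake were called higher (24.4% of all genes were), with a median log2 fold change of 5.03 against 0.08 over all genes. Slc1a3, the other glial glutamate transporter, was at 4499, 4748 and 5333 CPM against at most 193 CPM elsewhere. Glul, which turns glutamate into glutamine, was at 13996, 13759 and 14955 CPM, above all 15 others, where microglia held the highest level of 3341 CPM. The glutamine exporter gene Slc38a3 had a log2 fold change of 6.94 and the GABA transporter gene Slc6a11 one of 6.92. Slc38a5 was not called, at 1.06 ± 0.276 CPM in astrocytes.

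For water, potassium and gap junctions, 14 of 15 genes were called higher (24.4% of all genes were), with a median of 6.37. The potassium channel gene Kcnj10 was at 1733, 1724 and 2036 CPM against at most 44.8 CPM, and Gjb6, the other main astrocyte connexin, at 333, 301 and 320.1 against at most 36.3 CPM. Both were separated from every other library. Gjb2, another connexin, was called higher at 5.00, but microglia at 22.3 ± 5.25 CPM overlapped the astrocytes at 25.6 ± 3.37 CPM.

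Of 17 genes for lipoproteins and fatty acid handling, 15 were called higher and 1 lower (24.4% and 10.4% of all genes). Clu was at 6879.8, 6736 and 7887 CPM (log2 fold change 5.64), and the fatty acid binding protein gene Fabp7 at 203, 237 and 297 CPM (log2 fold change 6.89). The exception was Abcg1, a transporter that moves cholesterol onto lipoproteins (chromosome 17 from 31057675 to 31117988). It was at 19.1, 18.5 and 17.8 CPM in astrocytes against 66.96, 117 and 208 CPM at the lowest, median and highest of the others, with no overlap, a log2 fold change of -2.61 (standard error 0.07, adjusted p = 3.05e-17 from edgeR). Its partner transporter Abca1 was called higher at 2.80, at 92.2, 85.1 and 112 CPM, below the microglia mean of 135 CPM. The lipase gene Lpl was not called.

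Cholesterol synthesis was higher nearly throughout: 17 of its 18 genes were called, with every astrocyte library above all others for each of the 17. Over all genes tested, 24.4% were called higher and 13% had every astrocyte library above all others. The changes were moderate, with a median of 2.67. Hmgcs1 was at 927, 1236 and 1225 CPM against 54.8, 109.9 and 397 CPM (lowest, median and highest of the others), and Sqle at 162, 186 and 203 against at most 59.6 CPM. Layer V neurons held the highest level outside astrocytes for both genes. Ebp was not called, and its log2 fold change was -0.87. In fatty acid oxidation and ketone metabolism 17 of 18 genes were called higher (median 2.94). Cpt1a, which admits fatty acids to mitochondria, was at 176, 171 and 199 CPM against at most 57.05 CPM. Microglia were the next type, and for Acads they exceeded the astrocytes (95.3 against 44.4 CPM), although Acads was called higher at 4.33.

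In glycogen, glucose and lactate handling, 15 of 19 genes were called higher and 1 lower (24.4% and 10.4% of all genes). Aldoc, the brain aldolase (chromosome 11 from 78322968 to 78327781), was at 8198, 7406 and 8383 CPM against at most 150.1 CPM. The glycogen genes followed: Ppp1r3c had a log2 fold change of 6.38, the phosphorylase genes Pygm and Pygb ones of 4.80 and 3.45, and the synthase gene Gys1 one of 2.68. The 3 genes not called were Hk1 (-0.16), Aldoa (-0.49) and Ldha (0.40). The lactate transporters were divided. Slc16a1 was at 59.8, 64.3 and 68.6 CPM, above all others (at most 27.1 CPM), while Slc16a7, known as the neuronal lactate transporter, was at 7.14, 7.38 and 5.30 CPM, below all others (at least 13.00 CPM), with a log2 fold change of -1.96.

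The serine, glycine and folate list was the most mixed of the metabolic lists (median 1.34). In it 11 of 17 were called higher and 1 lower (24.4% and 10.4% of all genes). Phgdh, which commits glucose carbon to serine, was at 511, 581 and 636 CPM against at most 145 CPM, and Gldc, of the glycine cleavage system, at 299.6, 294 and 355 against at most 6.49 CPM. Mthfd1l, a mitochondrial folate enzyme gene, was below all other libraries at 3.71, 4.35 and 4.17 CPM (at least 6.56 elsewhere). Of 22 antioxidant and metallothionein genes 16 were called higher (24.4% of all genes were). Mt1 was at 836, 783 and 942 CPM against at most 62.98 CPM, the glutathione transferase gene Gstm1 had a log2 fold change of 6.50, the peroxiredoxin gene Prdx6 one of 5.49 and the cystine transporter gene Slc7a11 one of 6.25. Those not called included Gpx4 (0.45), which most cells use.

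Among 24 transcription factors known from astrocytes, 21 were called higher (24.4% of all genes). For 17 every astrocyte library lay above all others (13% of all genes). Sox9 was at 365, 408 and 425 CPM against at most 11.1 CPM, Rfx4 at 129, 126 and 144 against at most 2.91 CPM and Hes5, a Notch target, at 98.6, 97.3 and 108 against at most 3.20 CPM. The nuclear factor I genes, known for their part in the making of glia, behaved otherwise. Nfia was called higher at 1.85 but at 219 ± 10.7 CPM was below the 366 ± 11.4 CPM of cerebellar granule cells. Nfib (0.47) and Nfix (0.20) were not called.

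Of 26 surface receptor genes 22 were called higher and 1 lower (24.4% and 10.4% of all genes). The growth factor receptor gene Fgfr3 was at 1061, 952 and 1068 CPM against at most 30.2 CPM, and the endothelin receptor gene Ednrb at 284, 375 and 407 against at most 6.24 CPM. The 2 metabotropic glutamate receptors of the list parted: Grm3 was at 382, 393 and 476 CPM, above all others, with a log2 fold change of 6.29, whereas Grm5 was at 36.2, 37.9 and 33.7 CPM and not called (-0.37). The adenosine receptor gene Adora1 was not called either (0.16). Among 19 secreted and synaptogenic factors 18 were called higher and 12 lay above all other libraries (24.4% and 13% of all genes). Sparcl1, which promotes excitatory synapses, was at 10157, 10024 and 11609 CPM against at most 1192 CPM, Chrdl1 at 159, 162 and 170.0 against at most 3.36 CPM and the angiotensinogen gene Agt at 108, 129 and 144 against at most 7.47 CPM. Sparc, which opposes Sparcl1, was called higher at 4.16 but was far below microglia, at 677 ± 25.7 against 6452 ± 166 CPM.

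Genes of reactive astrocytes, which rise after injury, were called higher in 19 of 21 cases (24.4% of all genes were). For 6 of the 21 every astrocyte library lay above all others (13% of all genes). Against microglia alone, 5 were called higher and 7 lower (background 23.1% and 21.1%). C4b was at 71.5, 67.8 and 86.9 CPM against at most 26.3 CPM and Vim at 86.9, 94.9 and 107 against at most 70.1 CPM. Serpina3n, at 95.5 ± 11.3 CPM, was below the dentate gyrus granule cells at 193 ± 7.90 CPM. The inflammatory genes Lcn2 (0.342, 0.780 and 0.0911 CPM), Cxcl10 (0.554, 0.499 and 0.804 CPM) and C3 (0.407, 0.609 and 0.577 CPM) stayed under 1 CPM in all 3 astrocyte libraries.

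**Figure D3:**
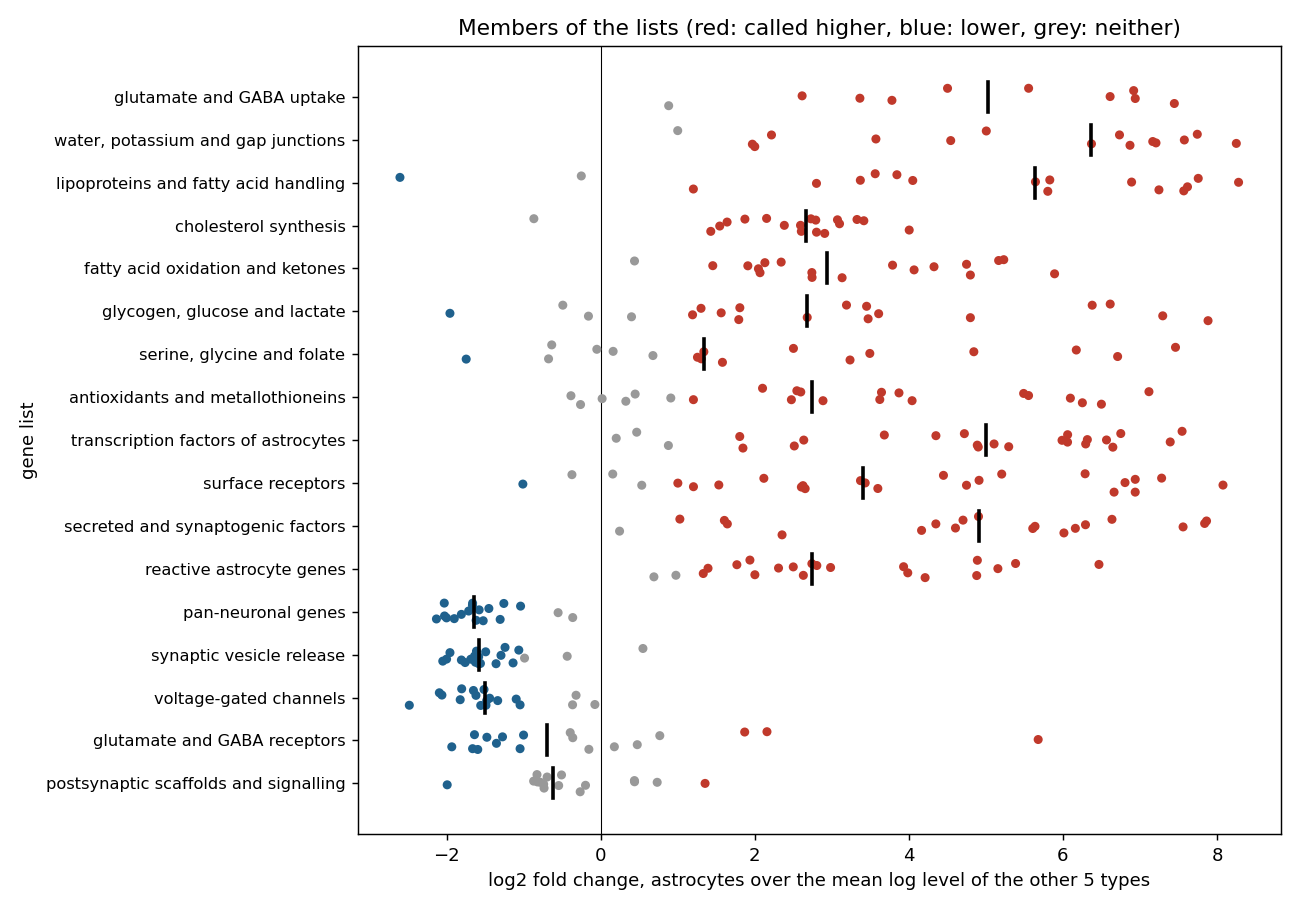
Log2 fold change (astrocytes over the mean log level of the 5 other types) of each member of the 17 function and state lists; a point is a gene, the black bar the median of its list, red called higher, blue lower and grey neither. The astrocyte lists have medians from 1.34 to 6.37 and the neuronal lists medians from -1.64 to -0.62, with Gabrg1 at 5.68 standing apart among the receptors.

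By TPM, the most abundant genes called higher were Apoe (30677 ± 903 TPM), Cpe, a prohormone carboxypeptidase (14321 ± 527), Cst3, cystatin C (10619 ± 698), Glul (9035 ± 381), Sparcl1, Aldoc, Ndrg2, Clu, Tspan7 and Ckb, the brain creatine kinase. These 10 genes took 10.5% of all astrocyte TPM (10.10% to 10.97% across the 3 libraries) against 0.368% to 0.745% in the neuronal types and 5.94% in microglia. Abundance and specificity were separate. Ckb was 3.62 times the mean of the other types and Ndrg2 109 times, while Cst3, called higher at 4.21, was at 4664, 4377 and 5034 CPM in astrocytes and at a mean of 19841 CPM in microglia. The 2283 genes called higher and above all 15 held 32.8% of astrocyte TPM and 4.12% to 5.91% in each other type. Both sets were chosen for high levels in astrocytes, so the direction of these shares is no result of its own.

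Genes lowest in astrocytes formed a smaller group, and the 10 with the lowest log2 fold changes (among those at 50 CPM or more in the other types and below all 15 libraries) were chosen by a rule that sets astrocytes below every other type. Ptpre, a receptor tyrosine phosphatase gene (chromosome 7 from 135537481 to 135686293), was at 8.44, 7.88 and 7.22 CPM in astrocytes, and the lowest, median and highest of the others were 33.97, 94.5 and 136 CPM. That amounted to -3.27 on the log2 scale, with a standard error of 0.11 and an edgeR adjusted p of 4.39e-14. Ppfia4, a liprin of the presynaptic active zone (chromosome 1 from 134296783 to 134332928), was at 27.4, 24.8 and 23.5 CPM against 68.6, 185 and 586 CPM. Kctd12, an auxiliary subunit of GABA-B receptors, was at 24.3, 29.5 and 30.2 CPM against 39.6, 259 and 943 CPM. The choice of these genes fixed that the groups do not overlap. For Kctd12 microglia were the highest type, at a mean of 858 CPM.

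The other 7 had log2 fold changes from -2.72 (Nhsl2) to -2.47 (Rassf5, a Ras effector). They were Sh3bp5 (-2.67), Abcg1, Rtn4rl1, a Nogo receptor homologue (-2.60), Slc7a8, a neutral amino acid exchanger (-2.58), and Cbfa2t3, a transcriptional corepressor (-2.56). Slc7a8 was at 23.6, 23.5 and 19.6 CPM in astrocytes, at a mean of 431 CPM in microglia and of 70.7 CPM in dentate gyrus granule cells. Of the 2129 genes called lower, astrocytes had the lowest mean in 923 (43.4%) and microglia in 880 (41.3%). How often each type was lowest among all genes tested was not computed, so these shares have no background beside them.

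Most genes of the pan-neuronal, synaptic vesicle and channel lists were called lower in astrocytes, and fewer of the receptor and postsynaptic lists. In the pan-neuronal list 16 of 18 genes were called lower and none higher (10.4% of all genes were called lower), in the synaptic vesicle list 19 of 22, in the voltage-gated channel list 15 of 18, among glutamate and GABA receptors 9 of 18, with 3 higher, and among postsynaptic scaffolds 1 of 16, with 1 higher. No gene of these 5 lists had all astrocyte libraries below all 15 others (5.9% of all genes did). The 15 include microglia, whose mean was below that of astrocytes for 86 of the 92 genes. Snap25, a SNARE protein of the synapse, was at 488, 610.5 and 436 CPM in astrocytes, from 1677 through a median of 3907 to 8699 CPM in the 12 neuronal libraries, and at 187 ± 17.7 CPM in microglia. Syt1, the calcium sensor of release, was at 307, 340.5 and 300.2 CPM, against 852, 1492 and 2422 CPM in neurons and 119 ± 8.71 CPM in microglia. The order from neurons to astrocytes to microglia was the same in both, with no overlap between the 3. Rbfox3, the NeuN gene, was at 100.0, 108 and 97.04 CPM in astrocytes and 96.3 ± 10.5 CPM in microglia, which overlapped.

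Over the 92 genes of the 5 neuronal lists, the astrocyte level was a median of 22.3% of the mean of the 12 neuronal libraries (interquartile range 16.2% to 33.8%), and 21.2%, 22.6% and 21.3% in astrocyte replicates 1 to 3. In microglia, taken from the same tissue, it was 11.4% (7.47% to 18.3%), and 10.6%, 11.8% and 11.2% in replicates 1 to 3. Per TPM the medians were 18.4% and 10.4%. For 86 of the 92 genes the mean was higher in astrocytes than in microglia (51.4% of all genes), 49 of the 92 were called higher than in microglia and 0 lower (backgrounds 23.1% and 21.1%), and for 50 genes every astrocyte library lay above all microglia and below all neuronal libraries (7.43% of all genes). Against the mean of the 4 neuronal types 69 of the 92 were called lower and 4 higher (backgrounds 13.7% and 28.2%). Whether these levels are RNA of astrocytes or of neurons carried through the pull-down was not tested. In the libraries used here batch cannot be told apart from the difference to microglia, which was not fitted with a batch term.

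**Figure D4:**
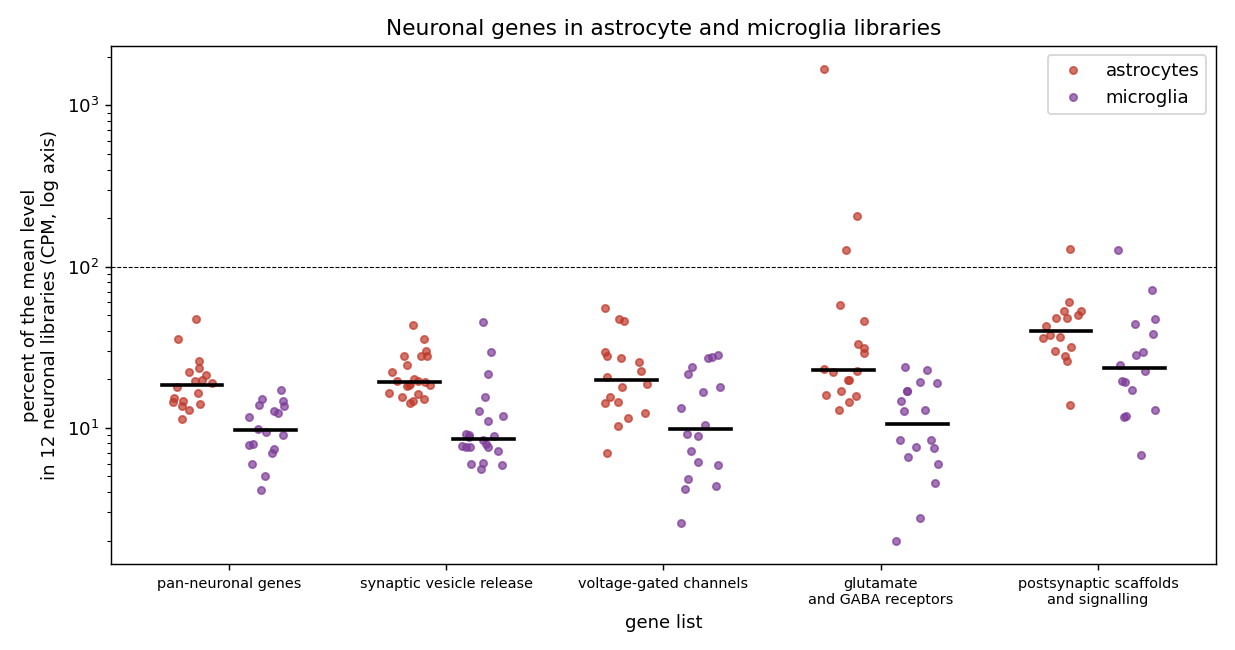
Level of each gene of the 5 neuronal lists in astrocytes (red) and microglia (purple) as a percent of its mean CPM in the 12 neuronal libraries (log axis); black bars are list medians and the dashed line marks the neuronal mean. Astrocyte medians run from 18.4% (pan-neuronal) to 40.1% (postsynaptic) and microglia medians from 8.59% to 23.5%. In astrocytes Gabrg1 lies furthest above the neuronal mean, at 1670%, and the highest member of the postsynaptic list is at 129%.

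Markers of single neuron types were measured in the astrocyte libraries too. The excitatory markers summed to 457 to 555 CPM in astrocytes, 235 to 293 in microglia and 2720 to 6230 in the 3 excitatory types. The transporter gene Slc17a7 was at 463, 451 and 377 CPM in astrocytes, 18.3% of its mean in layer V neurons of the same tissue. Gabra6, of cerebellar granule cells, was at 0.0815, 0.0624 and 0.0759 CPM in astrocytes against a mean of 3310.2 CPM in its own type. The source of these transcripts in the astrocyte libraries was not tested. The inhibitory markers summed to 249 to 361 CPM in astrocytes and 7030 to 7377 in interneurons; Sst, called higher at 1.16, was at 48.3 ± 5.71 CPM in astrocytes and 1450.5 ± 121 in interneurons.

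Some members of the neuronal lists went the other way. Gabrg1, a GABA-A receptor subunit gene (chromosome 5 from 70751047 to 70842617), was at 114, 123 and 123 CPM in astrocytes against 0.163, 1.31 and 25.5 CPM, with no overlap and a log2 fold change of 5.68 (standard error 0.09, adjusted p = 7.12e-19 from edgeR). Gabrb1 (2.16) and Gabra2 (1.87) were the only other genes called higher among the 18 receptor genes. Neither stood above the dentate gyrus granule cells, where the means were 231 and 196 CPM against 228 and 139 CPM in astrocytes. Nrgn, a postsynaptic calmodulin-binding protein, was called higher at 1.35 while at a mean of 0.657 CPM in cerebellar granule cells: its astrocyte level of 514 ± 47.8 CPM was 0.355 times the arithmetic mean of the other types.

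Markers of further cell types were measured in the astrocyte libraries as well. The 11 microglia markers summed to 136 to 156 CPM, 0.344% of the microglia level. Tmem119 was at 7.84, 7.60 and 6.15 CPM in astrocytes and 1716 ± 79.1 CPM in microglia. The 10 oligodendrocyte markers summed to 1556 to 1660 CPM, below the interneurons at 3401 to 3673 and above the other 4 types. The sum of the 6 oligodendrocyte precursor markers was highest in astrocytes, at 316 to 366 CPM against 140 to 164 in interneurons. For 3 of the 6 every astrocyte library lay above all others (13% of all genes). Olig2 was at 46.97, 43.2 and 51.99 CPM and the defining marker Pdgfra at 13.5, 15.2 and 13.1 CPM, against 15.4 ± 2.05 CPM in microglia. The 7 endothelial markers summed to 72.6 to 86.9 CPM against 408 to 612 in microglia. The 6 pericyte and smooth muscle markers summed to 186 to 216 CPM against 300 to 388 in microglia, and of these Pdgfrb was at 89.1, 92.2 and 112 CPM in astrocytes, above all others. The 5 fibroblast and meningeal markers summed to 138 to 172 CPM against 626 to 2469 in microglia. The part of such cells in the astrocyte levels was not tested.

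**Figure D5:**
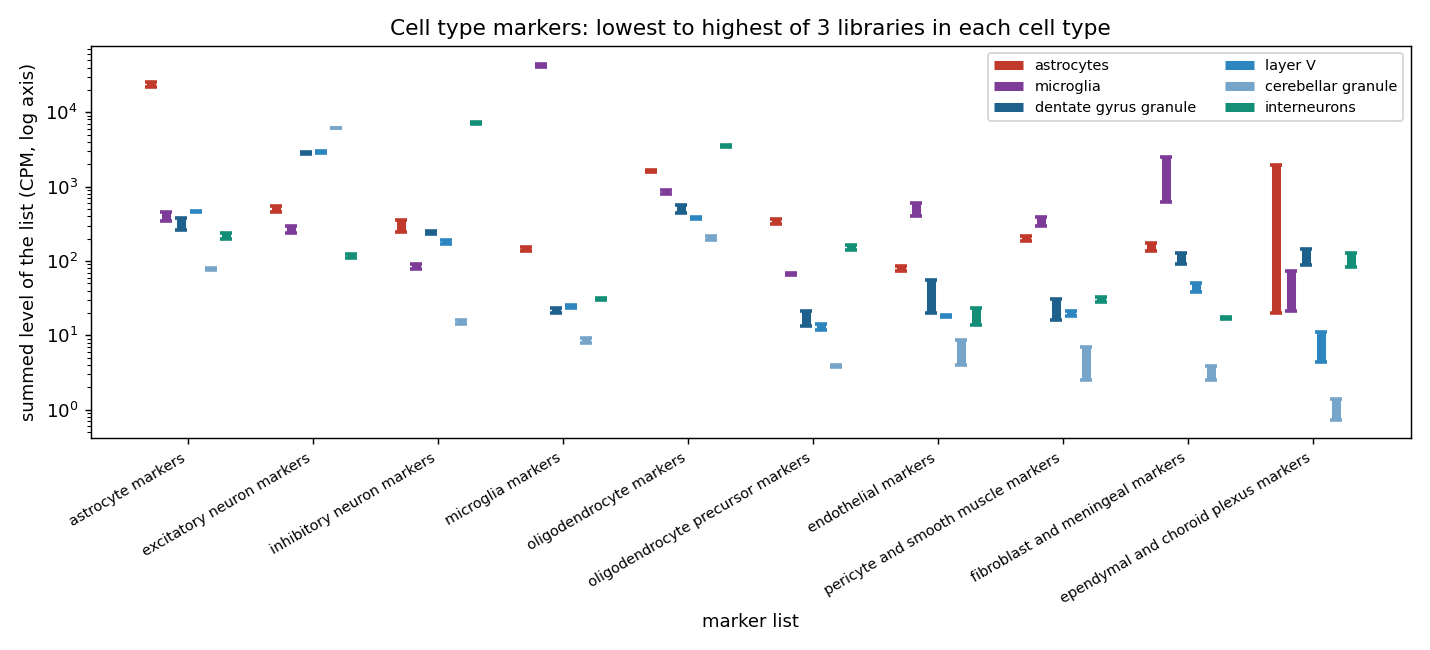
Summed CPM (log axis) of each of the 10 marker lists; each bar spans the lowest to the highest of the 3 libraries of a cell type. Every cell type with markers of its own has the highest sum for them, astrocyte libraries hold 136 to 156 CPM of microglia markers, and the ependymal and choroid plexus sum spans 19.9 to 1945 CPM among the astrocyte libraries.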

How the data were processed

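Paired-end reads from a stranded mRNA kit were trimmed by the authors with cutadapt 3.5 and assigned to GENCODE M24 transcripts with kallisto 0.46.2. The deposited tables hold estimated counts, not normalized, and TPM per transcript. Here the deposited estimated counts were summed per gene and rounded, and the deposited TPM were summed per gene. No column was left unmapped (0).

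Genes were filtered with filterByExpr, scaled by TMM and tested with edgeR 4.0.16 (quasi-likelihood, robust) in R 4.3.3, the contrast being astrocytes minus the mean of the 5 other coefficients, with Benjamini-Hochberg adjustment over 20524 genes. Calls needed an adjusted p of at most 0.05 and 2-fold. On simulated counts, 200 of 200 changed genes were recovered among 19271. There all cell types shared the same mean levels apart from those changes, the spread was fixed, and every change was larger than 2-fold. The simulation therefore checks that the code runs as meant and does not measure how many calls in the real data are right. The authors' own tests were run with another tool, which was not used here. The study's methods call the replicates of each genotype biological, but the labels do not say that replicates of every group are separate animals. The p-values therefore measure the spread between libraries.

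Named are the 4 markers, the 20 highest and 10 lowest log2 fold changes (at least 20 CPM in astrocytes or 50 CPM elsewhere, libraries not overlapping, unnamed gene models left out), the 10 highest in TPM, and members of 17 function and 10 marker lists. A few list members are counted but not reported by name here. Members and lists were chosen with earlier results of these data known. Enpp2, Hbb-bs and Hba-a1 were chosen after their values were seen. Alternatives were DESeq2 1.42.0, other scaling, filters and batch choices, the replicate block, other reference types, TPM, and leaving out each library. Gene coordinates are those of GRCm38. Counting precision is set by the depths given above, and intervals were not computed.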

Additional observations from a re-analysis of the deposited data

How the results depend on the processing

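The counts of 5001 genes higher and 2129 lower kept within 1.5 times under DESeq2 (4927 and 2125) and under the other scaling and filters. The same held for the choice of batch for replicates sequenced in both and for the mean of the 4 neuronal types. A fit of all 22 libraries with batch as a term, in which the 4 replicates sequenced in both batches count more than once, gave 4839 and 2453. Batch 1 alone (5788 and 2706) holds no microglia or interneurons and batch 2 alone (4360 and 2218) has 1 astrocyte library, assumed to vary like the others, so neither repeats the same comparison. With microglia as the only reference 4734 genes were higher and 4335 lower, and 52.2% of calls were higher in place of 70.1%. Leaving out 1 library gave 4784 to 5152 higher and 2134 to 2464 lower, and 21.5% to 22.5% for the neuronal lists, which were at 22.3% with all libraries and at 18.4% in TPM. With the replicate block, 4977 genes were higher and 2116 lower, of which 4953 and 2103 were among the calls without it. Libraries with the same replicate number did not deviate together (45 pairs, r from -0.0999 to 0.109, 3 over 0.1).

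With microglia as the only reference the log2 fold change turned for Abca1 (-0.48), Acads (-1.10), C3 (-2.37), Cst3 (-2.08), Cxcl10 (-0.30), Pdgfra (-0.15), Slc38a5 (-2.01), Sparc (-3.25) and Tmem119 (-7.90), and for Gabra6 (0.30), Grm5 (1.85), Hk1 (1.65), Rbfox3 (0.079), Slc17a7 (1.01), Snap25 (1.45) and Syt1 (1.41). As a ratio of arithmetic means it turned for Nrgn (-1.49), Sparc (-0.94), Sst (-2.71) and Tmem119 (-5.58), which follows from the mean of log levels used otherwise. Adora1 turned in batch 1 (-1.03), where the reference lacks both microglia and interneurons. It was 2.00 against microglia alone and -0.30 against the 4 neuronal types, interneurons among them. Ttr turned in batch 2 (-3.04), where replicate 1 is absent. Ttr ranged from -1.37 without astrocyte replicate 1 to 6.24 without layer V replicate 1.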

Other observations

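The astrocyte libraries were close to each other: over 4174 genes at 50 CPM or more the median ratio of the highest to the lowest library was 1.12, and 16 genes exceeded 2-fold. Ttr, a choroid plexus gene, was at 1903, 2.81 and 7.06 CPM in replicates 1 to 3, so the ependymal and choroid plexus sum of 1945 CPM rests on 1 library, and its log2 fold change of 5.70 became -1.37 without that library. Enpp2, also made by choroid plexus, was at 430.4, 82.9 and 84.03 CPM and stood highest in the same library.

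Haemoglobin transcripts were higher in astrocyte libraries than in all others. Hbb-bs was at 644, 1404 and 1382 CPM against a median of 6.77 and a highest of 155 CPM among the other 15, and Hba-a1 was at 356, 778 and 786 CPM against 6.13 and 103 CPM. Both were lowest in replicate 1 among the astrocyte libraries, the reverse of Ttr and Enpp2. The source of these transcripts was not tested.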
